A study of Mus musculus with 6 samples.

Results

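The Trim ubiquitin ligases and Usp deubiquitinases were examined for the chromatin peaks that the authors listed as specific to microglia with or without the microRNA gene Mir137. Members were the protein-coding genes of mm10 whose symbols begin with Trim or Usp followed by a digit, which gave 124 of 21887 coding genes: 68 Trim and 56 Usp genes. A peak belonged to a member when, among the ends of all coding genes, an end of that member lay nearest to the peak's midpoint and within 100 kb. By this rule 70 of 12105 listed peaks belonged to the members. Membership by symbol is not the same as function: Usp6nl, which has the name, encodes a GTPase-activating protein for Rab proteins and no deubiquitinase.

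The libraries came from ATAC-seq, which uses the Tn5 transposase to tag open chromatin, on sorted microglia, brain macrophages that stay in the tissue for life. All animals were C57BL/6J mice, aged 8 weeks by the labels, that carried Tmem119-CreERT2, a recombinase expressed from the microglial gene Tmem119 and activated by tamoxifen, given on 7 days from 7 to 8 weeks of age. The knockout (cKO) was Mir137loxP/loxP;Tmem119-CreERT2 and the control (cWT) was Mir137+/+;Tmem119-CreERT2, with 3 libraries each of about 50000 cells. The study states 4 mice without linking them to libraries. The purpose stated for the experiment was to find the regulators most active after loss of miR-137. The data used here were 2 peak lists, 1 per genotype, that hold no value for any single library. The variation between animals is therefore unknown, as is the sequencing depth, and no difference between genotypes could be tested. A peak present in fewer cells and a peak that is weaker in every cell cannot be told apart in such data. As a check of the labelled cell type, the microglial markers P2ry12, Tmem119, Sall1 and Trem2 had a listed peak, and Cx3cr1, Aif1 and Csf1r had none. Of 12 markers of other cells, 6 had one (10 and 4 peaks), and the part of such cells in the values below was not tested. The lists name only genotype-specific peaks, so a marker without a peak in them may still be open.

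Ubiquitin is attached to proteins by a relay of activating (E1), conjugating (E2) and ligating (E3) enzymes, and the linkage decides whether the target is degraded or used as a signalling platform. TRIM proteins are typically, though not all, E3 ligases built on a RING finger, B-boxes and a coiled coil. Many TRIM proteins are induced by interferon and act in antiviral defence. USPs are cysteine proteases and form the largest family of deubiquitinases, which take ubiquitin off again. In macrophages both families are known for tuning the pathways from RIG-I, Toll-like receptors and the TNF receptor to NF-kB and interferon.

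In 3 cases a cKO-specific peak contained an annotated transcription start of its member, and the sequences before these starts are shown because the peaks lie on them. The 250 bases before each start are given in the direction of the gene, from RefSeq promoters of GRCm38.p6. For Trim25 (chr11:88999153-88999402, plus strand) capitals mark the E-box CACGTG and 2 copies of the GC box GGGCGG, here on the opposite strand. For the internal start of Trim2 (chr3:84220878-84221127, minus strand) capitals mark the AP-1 match TGANTCA. For the second start of Trim13 (chr14:61599262-61599511, plus strand) capitals mark the 159 bases inside the peak. The peaks cover all 250 bases shown for Trim25 and Trim2.
Trim25: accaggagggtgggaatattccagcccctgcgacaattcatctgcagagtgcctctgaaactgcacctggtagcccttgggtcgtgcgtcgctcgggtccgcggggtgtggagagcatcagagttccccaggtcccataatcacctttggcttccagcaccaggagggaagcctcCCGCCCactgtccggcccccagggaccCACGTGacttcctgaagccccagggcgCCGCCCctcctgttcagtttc
Trim2: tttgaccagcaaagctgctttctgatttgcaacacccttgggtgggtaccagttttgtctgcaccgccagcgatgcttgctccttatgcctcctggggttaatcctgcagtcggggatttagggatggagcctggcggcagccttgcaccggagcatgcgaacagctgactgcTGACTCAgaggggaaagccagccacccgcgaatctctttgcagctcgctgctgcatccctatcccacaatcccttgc
Trim13: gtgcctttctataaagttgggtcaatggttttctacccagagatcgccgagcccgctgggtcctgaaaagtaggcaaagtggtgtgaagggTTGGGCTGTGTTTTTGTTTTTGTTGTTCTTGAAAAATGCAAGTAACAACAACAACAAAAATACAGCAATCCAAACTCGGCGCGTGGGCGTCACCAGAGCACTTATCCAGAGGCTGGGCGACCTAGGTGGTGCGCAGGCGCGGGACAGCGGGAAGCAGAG

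The members carried 48 cKO-specific and 22 cWT-specific peaks. The cKO share was thus 68.6% of 70 (exact Clopper-Pearson 95% interval 56.4 to 79.1, counting error only), beside 71.7% of all 11013 assigned peaks, a value inside that interval. The Trim genes had 22 and 11 peaks (66.7%, 48.2 to 82.0) and the Usp genes 26 and 11 (70.3%, 53 to 84.1). At least 1 cKO-specific peak was present at 30 of 124 members (24.2%), where the share of all coding genes was 22.5%. At least 1 cWT-specific peak was present at 20 members (16.1%), where it was 11.4%. Peaks of both lists occurred at 10 members (8.06%, beside 5.95% of all coding genes), and a peak of either list at 40 (32.3%, beside 27.9%). The cKO share of genes thus lies near the background. The territory of a gene is the length of genome whose positions are assigned to it. Per Mb of territory the peaks of the cKO list numbered 5.27 at members and 4.65 over all coding genes, and those of the cWT list 2.41 and 1.83.

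**Figure D1:**
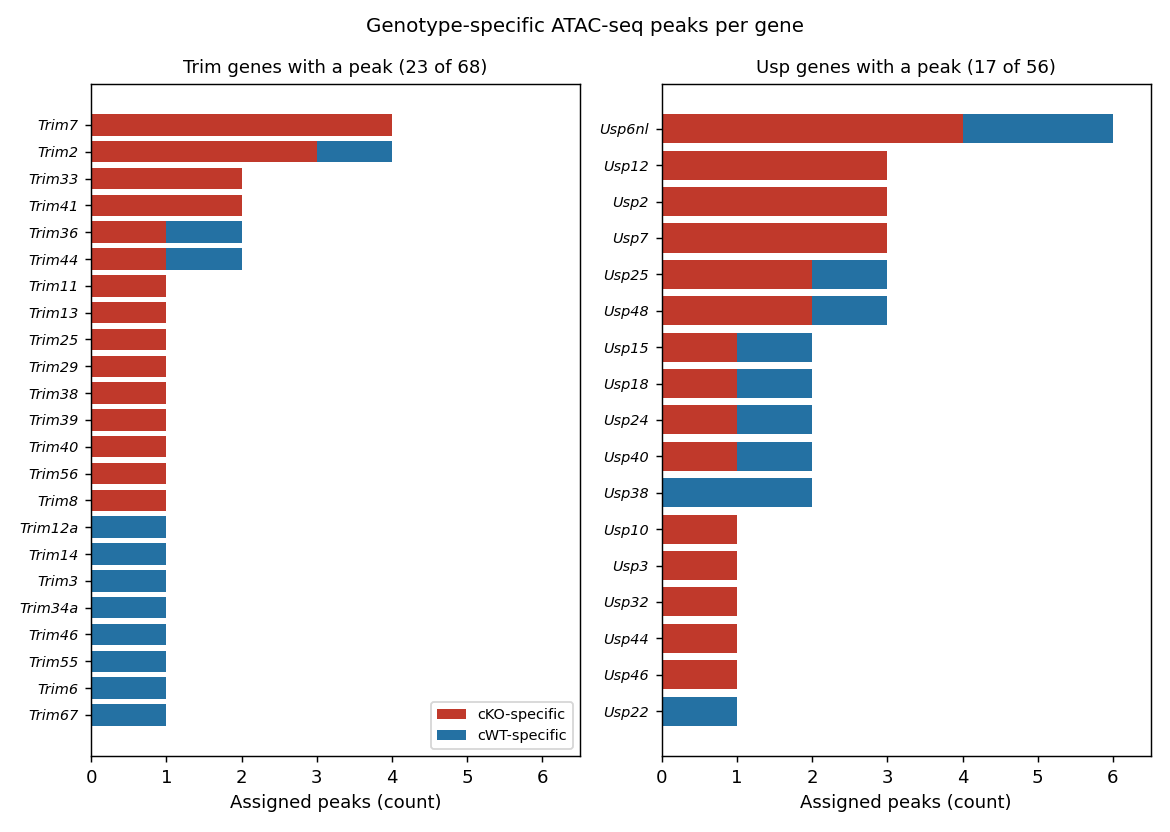
Number of assigned peaks (horizontal axis, count) at each of the 23 Trim genes (left) and 17 Usp genes (right) with a peak; red bars are cKO-specific and blue bars cWT-specific peaks. Usp6nl has the most with 6, and Trim7 has 4, all cKO-specific.

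Of 29 antiviral and innate immune TRIM genes, 8 had a cKO-specific peak (27.6%, beside 22.5% of all coding genes) and 4 a cWT-specific peak (13.8%, beside 11.4%). A peak of either list was present at 41.4% of them, beside 27.9% of all coding genes. The 12 genes with a peak had 12 peaks in all, 1 each, so none could have peaks of both lists. The median territory of this list was 28.0 kb, beside 46.4 kb for all coding genes, and 17 of its genes had no peak. Per Mb of territory it had 9.7 cKO-specific and 4.85 cWT-specific peaks, beside 4.65 and 1.83 over all coding genes. That difference was not tested. Trim25, whose ligase activates the RNA sensor RIG-I and which also modifies proteins with ISG15, had 1 cKO-specific peak at its start. It spans chr11:88999012-88999603, 592 bp wide, with the midpoint 96 bp before the start. The authors' signal for it was 28.5, which ranks 673 of 8615, and their p-value 0.19 ranks 193. This peak is 1 of 2 member peaks that they named primary (2.86%, beside 2.51% of all assigned peaks). What that name means was not given in the sources used here. Trim13, a membrane-anchored ligase of the endoplasmic reticulum, had 1 cKO-specific peak (chr14:61599353-61599845, signal 27.8, p-value 0.491). Its midpoint lies 87 bp after the second annotated start and 1373 bp from the gene's first end. Trim11, Trim38, Trim39, Trim40, Trim56 and Trim8 had 1 cKO-specific peak each. Trim14, a mitochondrial adaptor of RIG-I signalling, had 1 cWT-specific peak on its annotated end (chr4:46535856-46536240, signal 17.7, p-value 0.726), 102 bp from that end. What these deposited p-values test was not given in the sources used here, and they are used here only to order peaks within a list.

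The remaining cWT-specific peaks of this group all lay in 1 cluster of interferon-inducible genes on chromosome 7, described here after its values were seen. The cluster holds Trim6, Trim34a, Trim5, Trim12a, Trim34b, Trim12c and Trim30a to Trim30d, 10 genes over 289 kb (104218795 to 104507853). Its peaks were 3 of the cWT list and 0 of the cKO list. Trim6, whose ligase makes unanchored ubiquitin chains in interferon signalling, had a peak inside the gene 604 bp after its start (chr7:104219242-104219557, signal 13.8, p-value 0.896). Trim34a had one 3535 bp before its nearest annotated start (104240695 to 104241150, signal 12.5, p-value 0.880). Trim12a had one 3084 bp from the gene's nearest end (104296541 to 104297078, signal 15.9, p-value 0.857). Peaks carry numbers that rise along each chromosome, read here as places in a longer called list. Over these 77.8 kb 3 of 5 numbered cWT peaks were listed as specific. The limits of such a stretch, here and below, were set by the member peaks themselves. Its outermost peaks are therefore specific by construction, which raises the fraction. No fraction for a whole list is given beside it, so a raised density of specific peaks was not tested. The p-values of the 3 peaks rank 1436 to 1865 of 3490, near the middle of the list. The Trim5, Trim12 and Trim30 genes have close copies in the cluster, so how reads were shared among them is uncertain. On the whole of chromosome 7, 25 members had 0 cKO-specific and 4 cWT-specific peaks, the other one being at Trim3, whereas the chromosome held 500 and 194 in all. The cKO-specific peak nearest to the cluster lay 1259885 bp from Trim30d, so the region without one extends well beyond the cluster.

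Promoters of 6 of these 10 genes hold a match to the interferon response element, and 30 bases around it are shown because the rule and the peaks did not use them. The element was searched as GAAA, any 2 bases and GAAA again, on both strands of the 300 bases from 250 before to 50 after each listed start. It was found at 713 of 21263 coding promoters (3.35%) and at 13 of 111 member promoters (11.7%), which belong to 12 genes, 6 of them in the cluster. Capitals mark the match, on the strand opposite to the gene in each case. The positions are chr7:104244457-104244486 for Trim34a (plus strand), chr7:104288136-104288165 for Trim5, chr7:104315466-104315495 for Trim12a, chr7:104353359-104353388 for Trim12c, chr7:104465210-104465239 for Trim30a and chr7:104507871-104507900 for Trim30d (all minus strand).
Trim34a: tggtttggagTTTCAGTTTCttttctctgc
Trim5: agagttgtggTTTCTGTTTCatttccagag
Trim12a: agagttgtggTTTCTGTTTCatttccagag
Trim12c: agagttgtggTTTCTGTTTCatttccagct
Trim30a: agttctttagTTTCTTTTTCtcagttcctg
Trim30d: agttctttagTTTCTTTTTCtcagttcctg

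The 30 bases of Trim5 and Trim12a are the same letters, as are those of Trim30a and Trim30d. Among the 12 genes with the element, 3 had a listed peak: Trim12a, Trim34a and Trim2, whose element lies at another start than the one in its peak. A peak of either list was present at 32.3% of members and 27.9% of all coding genes. Trim25 and Trim13 had no match in this window. A match is a description of letters, and copies that arose by duplication are not independent examples.

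Trim7 and Trim41, neighbouring ligase genes on chromosome 11, carried a run of cKO-specific peaks. Trim7 is known for targeting proteins with a C-terminal glutamine, and Trim41 for restricting viruses. Neither is in the list of 29 antiviral and innate immune genes above, which is therefore not complete, and its counts leave out their peaks. Together Trim41 and Trim7 had 6 cKO-specific peaks and 0 cWT-specific peaks from 48808807 to 48838759. The cKO-specific peaks were 6 of the 8 numbered cKO peaks of that stretch, whose limits they set. Trim41 had one inside the gene (48808807 to 48809170, signal 29.7, p-value 0.462) and one 306 bp from its end (48818365 to 48818645, signal 7.21, p-value 0.868). The second lies 1114 bp before the annotated start. Trim7 had one 2324 bp before its first start (48823627 to 48824002, signal 14.8), one 634 bp after it (48826560 to 48826985, signal 9.34) and 2 just after a second, internal start. Those 2 are 48837738 to 48838214 and 48838305 to 48838759. They are 90 bp apart with the same signal of 21.6. Their midpoints lie 505 and 1061 bp after that start. Chromosome 11 as a whole held 722 cKO-specific and 218 cWT-specific peaks, and its 16 members 9 and 1. The cWT-specific peaks nearest to Trim41 and Trim7 lay 1408286 and 1393008 bp away, so the region without one extends well beyond these genes.

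**Figure D2:**
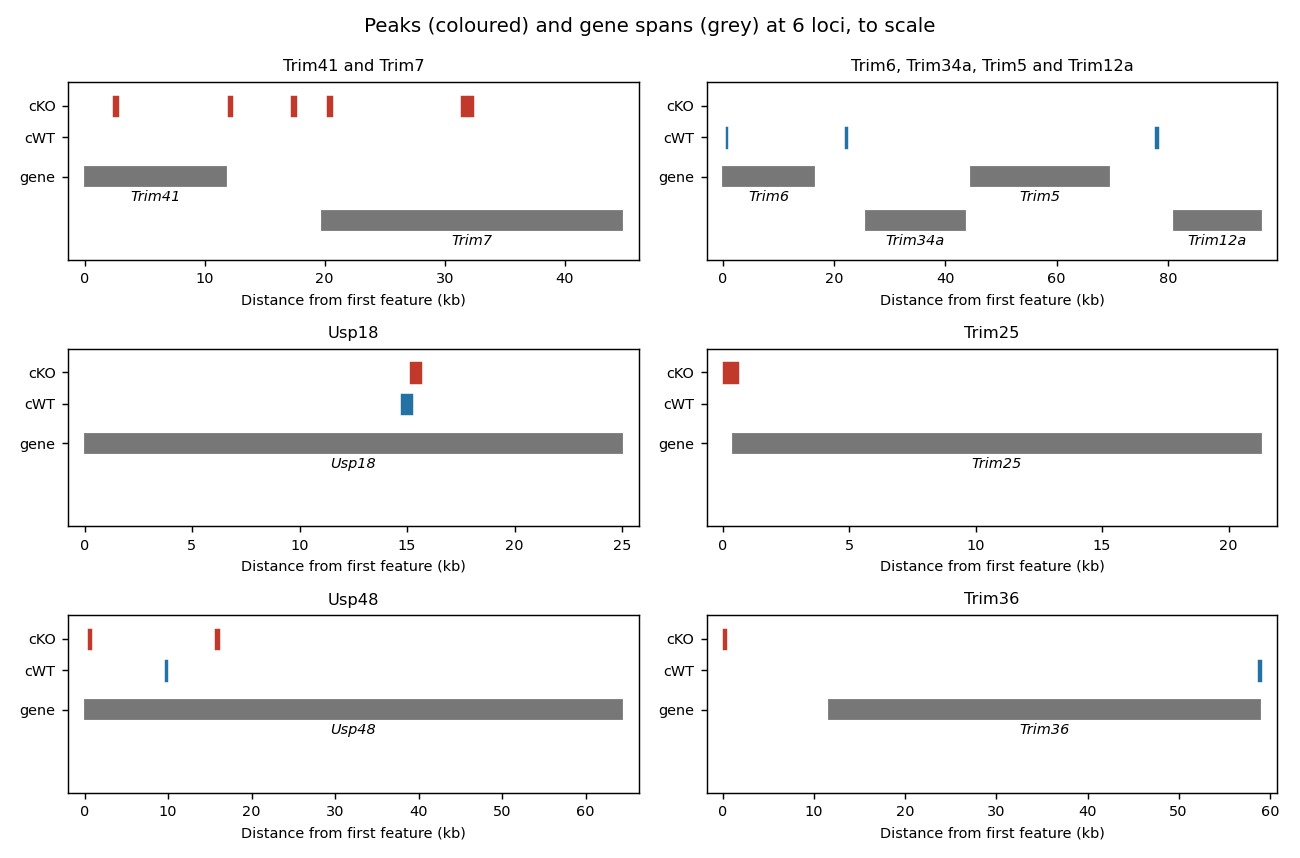
Gene spans (grey) and peaks (red, cKO-specific; blue, cWT-specific) at 6 loci, with distance from the first feature in kb on the horizontal axis. The Trim41 and Trim7 locus has 6 red peaks, 2 of which are 90 bp apart and look like 1 mark; the Trim6 to Trim12a stretch has 3 blue peaks and no red one, and at Usp18 a red and a blue peak overlap by 105 bp.

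Of the 7 genes with a COS box, which lets TRIM proteins bind microtubules, or their muscle relatives, 4 had a cWT-specific peak (57.1%, beside 11.4% of all coding genes) and 1 a cKO-specific peak (14.3%, beside 22.5%). Their 5 peaks give a cKO share of 20.0% with an exact interval of 0.505 to 71.6, just short of the 71.7% of all assigned peaks. That interval covers counting error only and is for 1 of 11 role lists, chosen with earlier results of these data known. A difference from all assigned peaks was not tested. The median territory of this list was 65.4 kb, beside 46.4 kb for all coding genes. Mid1 and Mid2, microtubule-binding ligases with a COS box whose symbols keep them out of the members, had no peak of either list. Trim46, known for organising microtubules at the start of the axon, had 1 (chr3:89246738-89246973, signal 25.3, p-value 0.472). This is the only cWT-specific member peak with a p-value up to 0.5. It lies 497 bp beyond an end of Trim46 and 958 bp before the nearest of its 3 listed starts, within the neighbouring gene Krtcap2. Trim55 and Trim67 had 1 cWT-specific peak each. Trim36, a ligase linked to the cytoskeleton and the cell cycle, had 1 peak of each list on chromosome 18. The cWT-specific peak lay on one end of the gene (46212362 to 46212731, 61 bp from the end, signal 14.4, p-value 0.861). The cKO-specific peak lay 11452 bp beyond the other end (46153703 to 46153993, p-value 0.231), 58368 bp from the first. Its signal of 56.1 is the highest of all 8615 cKO-specific peaks.

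Among the 4 genes with NHL repeats, Trim2, a neuronal ligase that acts on neurofilament light chain, had 3 cKO-specific and 1 cWT-specific peaks. The cKO-specific peak on its internal start (chr3:84220796-84221254) had a signal of 11.6 and a p-value of 0.879. The other 2 adjoin each other in the intergenic stretch (84355992 to 84356416 and 84356417 to 84356941), with the same signal of 30.2 and p-values of 0.771 and 0.605. The cWT-specific peak lay inside the gene (84175369 to 84175754, signal 11.8, p-value 0.948). Trim3 had 1 cWT-specific peak, and Trim32 and Trim71 had none. Of the 4 chromatin TRIM genes with a PHD finger and a bromodomain, Trim33, a regulator of Smad signalling, had 2 cKO-specific peaks; Trim24, Trim28 and Trim66 had none. Trim44 had 1 peak in each list, both inside the gene, 23168 bp apart. The cKO-specific one had a signal of 15.3 and the cWT-specific one 10.1. Trim29 had 1 cKO-specific peak.

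Of 14 deubiquitinase genes of innate immune and NF-kB signalling, 6 had a cKO-specific peak (42.9%, beside 22.5% of all coding genes), 5 a cWT-specific peak (35.7%, beside 11.4%) and 4 both (28.6%, beside 5.95%). The median territory of this list was 65.4 kb, beside 46.4 kb for all coding genes. Usp18, which removes ISG15 from proteins and holds back signalling at the type I interferon receptor, had the only member peaks of the 2 lists that overlap. The cKO-specific peak spans chr6:121261028-121261565 (signal 33.9, p-value 0.378) and the cWT-specific peak 121260629 to 121261132 (signal 41.0, p-value 0.754). They share 105 bp, which is 19.5% of the first and 20.8% of the second. Both lie inside the gene, with midpoints 9621 and 10037 bp from its end. The cWT-specific peak ranks 11 of 3490 in its list by signal and 775 by p-value; the cKO-specific peak ranks 278 and 574 of 8615. This stretch is thus listed as specific in both genotypes, and the values do not show it to be open in 1 of them alone.

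Usp48, a nuclear deubiquitinase that acts on the NF-kB subunit RelA, had 2 cKO-specific peaks and 1 cWT-specific peak. The cKO-specific peak at its start (chr4:137594575-137594913, midpoint 572 bp after the start) had a signal of 39.2, rank 88, and a p-value of 0.238. The cWT-specific peak (137603804 to 137604037, signal 19.9, p-value 0.863) and the other cKO-specific one (137609732 to 137610176, signal 12.6, p-value 0.914) lay further inside the gene. Usp25, a deubiquitinase of TRAF proteins, had 2 cKO-specific peaks, 2122 and 70193 bp after the annotated start (signals 14.3 and 17.4), and 1 cWT-specific peak between them (signal 10.7). All 3 were inside this 103 kb gene. Usp15, which acts on TRIM25 and on TGF-beta receptors, had 1 cKO-specific peak beyond the gene (signal 12.5) and 1 cWT-specific peak inside it (signal 15.1), 94155 bp apart. Usp38, which restrains TBK1, had 2 cWT-specific peaks and no cKO-specific one.

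Of 13 histone deubiquitinase genes, 5 had a cKO-specific peak (38.5%, beside 22.5% of all coding genes) and 1, Usp22 of the SAGA complex, a cWT-specific peak (7.69%, beside 11.4%). Their median territory was 78.5 kb, beside 46.4 kb for all coding genes. Their peaks numbered 9 and 1, a cKO share of 90.0% with an exact interval of 55.5 to 99.7, which includes the 71.7% of all assigned peaks. The Usp22 peak lay inside another gene, Tnfrsf13b, 9142 bp from the nearest end of Usp22. Of 4 genes that act on p53 or MDM2, 3 had a cKO-specific peak (beside 22.5% of all coding genes) and 0 a cWT-specific one (beside 11.4%), with a median territory of 79.9 kb. Their 7 peaks were all cKO-specific, and the exact interval of that share reaches down to 59.0%, so it includes 71.7%. Usp7 is on both lists, and Usp2 and Usp3 are also among the 14 innate immune genes. Usp7, which stabilises MDM2 and p53, had 3 cKO-specific peaks over 49.1 kb. They were 3 of 4 numbered cKO peaks in that stretch, whose limits they set. One (chr16:8738925-8739124, signal 13.8, p-value 0.798) lay 682 bp before an internal start, one (8736020 to 8736246, signal 14.3, p-value 0.753) 2209 bp after it, and the third in the intergenic stretch (8784833 to 8785095, signal 18.6, p-value 0.803). Usp2, a deubiquitinase of MDM2 and cyclin D1, had 3 over 18.3 kb. The widest of them (chr9:44094245-44095114, 870 bp) had a signal of 16.6 and a p-value of 0.470 and lay 948 bp from one end of the gene. The other 2 (44076816 to 44077079 and 44087760 to 44088150) had signals of 11.9 and 10.4. Usp12, which with Usp1 and Usp46 depends on the activator UAF1, had 3 over 41.0 kb (signals 17.97, 16.5 and 13.0), of which the first pair are 332 bp apart. Usp3, Usp10, Usp44 and Usp46 had 1 cKO-specific peak each.

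Usp32, a membrane-bound deubiquitinase of endosomal Rab7, had the lowest p-value of all member peaks: its only peak was cKO-specific and inside the gene (chr11:85003516-85003962, signal 40.1, rank 74, p-value 0.147, adjusted p-value 0.868, as the authors deposited them). It is the second member peak named primary. Usp6nl had 4 cKO-specific and 2 cWT-specific peaks in a territory of 226 kb, with signals of 11.1 to 21.4 in cKO and of 13.0 and 19.6 in cWT. Over 175 kb, with limits set by its own cKO-specific peaks, 4 of 11 numbered cKO peaks were specific. Usp24 had 1 of each: the cWT-specific peak (chr4:106316681-106316873, signal 11.4, p-value 0.848) lay 564 bp after a start, and the cKO-specific one (106309178 to 106309385, signal 17.8, p-value 0.809) 6932 bp before it, 7295 bp apart. Usp40 also had 1 of each, 22740 bp apart (signal 21.3 and p-value 0.441 in cKO, 18.3 and 0.815 in cWT). Both lay inside the neighbouring gene Dgkd.

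**Figure D3:**
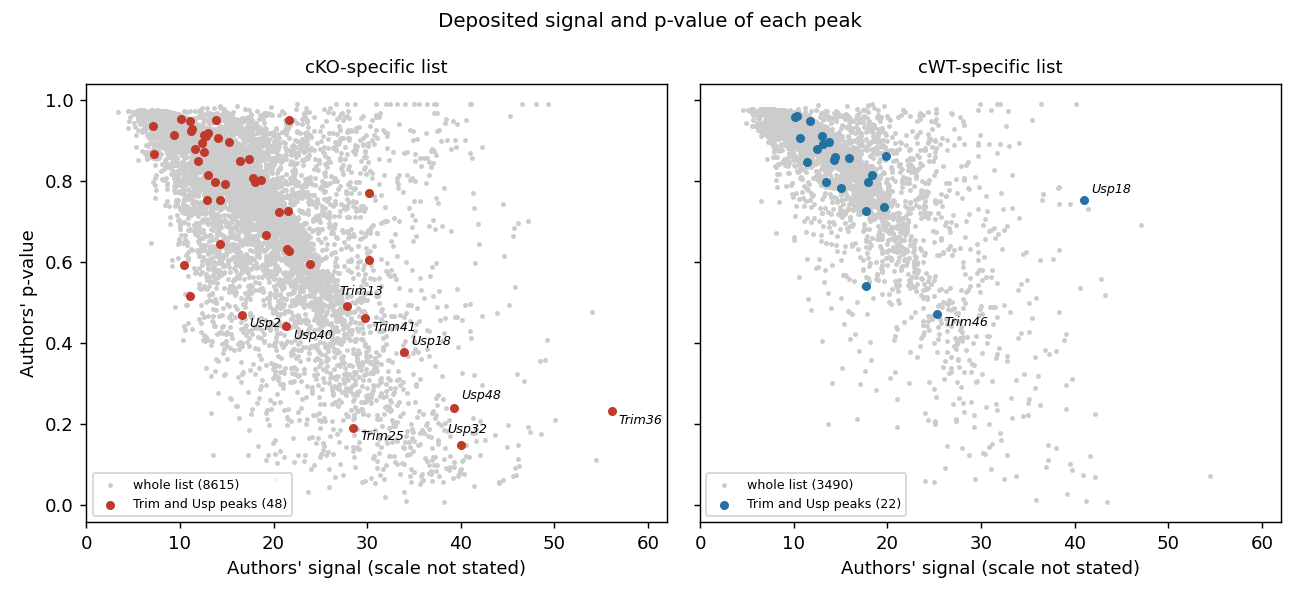
Authors' signal (horizontal axis, scale not stated) and p-value (vertical axis) of every peak in the cKO list (left) and cWT list (right); grey points are the whole list and coloured points Trim and Usp peaks, with gene names where the p-value is up to 0.5 or the signal above 35. Trim36 lies at the far right of the cKO list with 56.1, and in the cWT list Usp18 stands at 41.0; signals are not compared between lists.

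Member peaks spread over the range of their lists. In cKO their median signal was 15.1 (7.1 to 56.1), beside 16.6 for all assigned peaks, and in cWT 14.3 (10.1 to 41.0) beside 13.7. The median p-value was 0.798 beside 0.813 in cKO and 0.855 beside 0.884 in cWT. A p-value up to 0.5 was given for 9 of 48 cKO-specific member peaks (18.8%, beside 12.4%) and 1 of 22 cWT-specific ones (4.55%, beside 6.29%). The lowest adjusted p-value among member peaks was 0.868 in cKO and 0.981 in cWT. No member peak therefore has an adjusted p-value below 0.05 as deposited, and neither does any other peak of the lists, where the lowest was 0.194. Widths had a median of 363.5 bp in cKO (314 for all assigned) and 330.5 bp in cWT (321.5).

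Most member peaks lay away from gene ends. Within 1000 bp of an end of any coding gene were 5 of 48 cKO-specific peaks (10.4%, exact interval 3.47 to 22.7, beside 15.0% of all assigned) and 5 of 22 cWT-specific peaks (22.7%, 7.82 to 45.4, beside 17.8%). The 5 cKO-specific ones belong to Trim25, Trim41, Trim7, Usp2 and Usp48, and the 5 cWT-specific ones to Trim14, Trim36, Trim46, Trim6 and Usp24. Inside their own gene lay 27 cKO-specific and 14 cWT-specific peaks, inside another gene 1 and 3, and in no coding gene 20 and 5. Measured to the nearest end of its member, a cKO-specific peak had a median distance of 11645 bp and a cWT-specific one of 10042.5 bp. The farthest peak, of Trim33, was 62534 bp away. The first peaks beyond the 100 kb limit, 134866 and 201630 bp away, both have Usp25 as their nearest coding gene. Promoter entries exist for 96 of 124 members, which gives 56 member peaks a strand and a start. Of these, 3 hold a start (5.36%, beside 6.90% of 8613 assigned peaks), and 38 lie downstream of the nearest one (67.9%, beside 68.5%).

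No listed peak was assigned to 84 members. They include Trim21, the cytosolic antibody receptor, Trim28, the corepressor of KRAB zinc finger proteins, Trim30a, Trim32, Usp1, Usp4, Usp8, Usp14 of the proteasome, Usp16, Usp21, Usp30 of mitochondria and Usp9x. None of the 5 members on the X chromosome had a peak, where the lists hold 152 cKO-specific and 55 cWT-specific peaks. Members without a peak had a median territory of 39.5 kb and those with one 65.4 kb, beside 38.1 and 75.9 kb for all coding genes. Assignment hides some nearby peaks. Inside Trim37 a cKO-specific peak counts for Ppm1e, and one inside Usp49 for Tomm6. Usp5 had a cKO-specific peak 694 bp away, and Usp29 a cWT-specific one at 866 bp and a cKO-specific one at 1669 bp, all of which count for other genes. Among members with peaks of their own, a further cKO-specific peak inside Usp40 counts for Dgkd.

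Of 91 other genes of the ubiquitin pathway, listed by role, 33 had a cKO-specific peak (36.3%, beside 22.5% of all coding genes) and 13 a cWT-specific peak (14.3%, beside 11.4%), with 63 and 20 peaks. Other deubiquitinases, listed together with the USP activator gene Wdr48, made up 31 genes, of which 13 (41.9%) and 3 (9.68%) had one. Of 33 other ligases it was 11 (33.3%) and 6 (18.2%), of 22 E1 and E2 enzymes 7 (31.8%) and 3 (13.6%), and of 5 ubiquitin and ISG15 genes 2 and 1. The E2 genes Ube2e1 and Ube2h each had 5 cKO-specific and 0 cWT-specific peaks. The ligase genes Fbxw7, Peli1 and Peli2 each had 4 and 0, and Tnfaip3, the gene of the ubiquitin-editing enzyme A20, had 4 and 3. In the other direction the ligase gene Wwp2 had 1 and 4 and Nedd4l 0 and 2. Stambp, a deubiquitinase gene, had 3 and 2, again more in the cKO list. Over the 91 genes the density was 7.55 cKO-specific and 2.4 cWT-specific peaks per Mb of territory, beside 4.65 and 1.83 for all coding genes, and no difference from the members was tested.

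**Figure D4:**
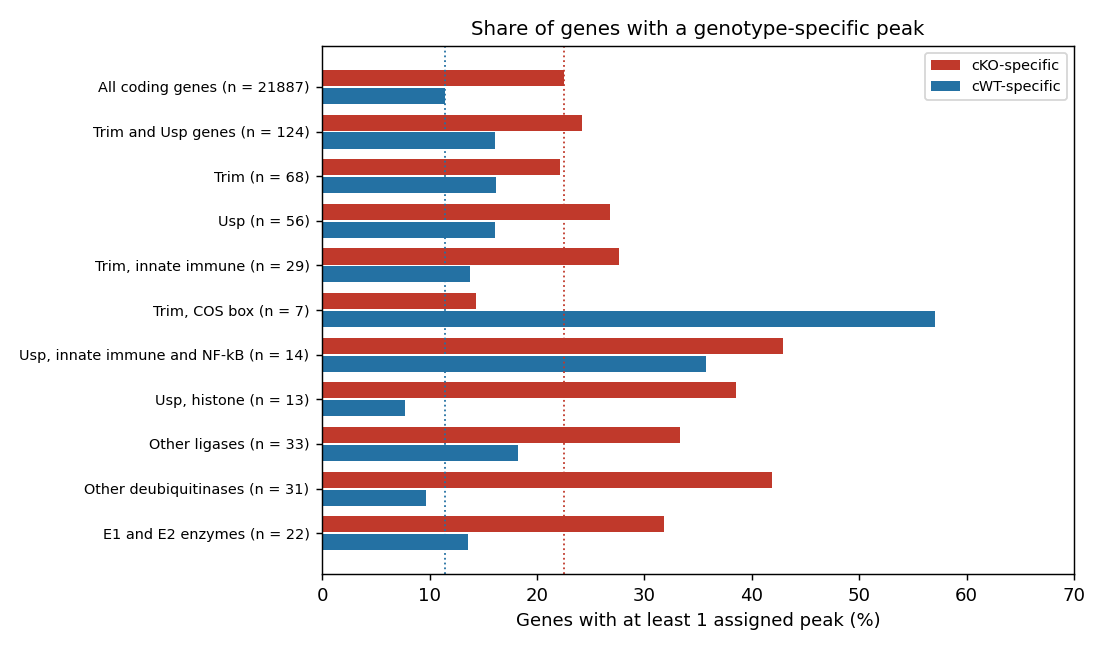
Share of genes with at least 1 assigned peak (horizontal axis, percent) for all coding genes, the members and gene lists, in red for cKO-specific and blue for cWT-specific peaks; dotted lines mark all coding genes at 22.5% and 11.4%. The members lie near the red line at 24.2% and reach 16.1% in blue; lists of few genes carry wide counting error.

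The microRNA removed in the cKO is shown because the study's title concerns microRNA action in the nucleus. The mature mmu-miR-137-3p (chr3:118433901-118433923, plus strand, RefSeq of GRCm38.p6) has its seed, bases 2 to 8, in capitals. The reverse complement of the seed in DNA letters, AGCAATA, was searched on both strands of the promoters and found at 359 of 21263 coding promoters (1.69%) and 2 of 111 member promoters (1.80%). Those belong to Trim38 (chr13:23782291-23782320, plus strand) and Usp40 (chr1:88008650-88008679, minus strand). In both the match is on the strand of the gene, 242 and 118 bases before the start, and is in capitals. Both genes have a cKO-specific peak, as have 24.2% of members and 22.5% of all coding genes. It lies 10239 bp from that start in Trim38 and 73299 bp in Usp40, so neither peak covers the match. Usp40 also has a cWT-specific peak, and both of its peaks lie inside Dgkd. A link between the match and the peaks was not tested.
mmu-miR-137-3p: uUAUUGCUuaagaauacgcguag
Trim38: ggaatgtgAGCAATAaaacagaaaatatac
Usp40: ttttgcaggcAGCAATAaatacaaatttta

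Of the other motifs searched, the AP-1 match TGANTCA was found at 15 of 111 member promoters (13.5%) and 6.99% of all, the PU.1 site GAGGAAGT at 5 (4.50%) and 3.13%, the E-box CACGTG at 8 (7.21%) and 7.84%, and the CRE TGACGTCA at 3 (2.70%) and 2.23%. The GC box GGGCGG was found at 54 (48.6%) and 46.2% and CCAAT at 45 (40.5%) and 38.2%. Promoters of Usp genes had a median GC content of 64.0%, those of Trim genes 53.3% and all coding promoters 56.3%.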

How the data were processed

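The authors deposited 2 headerless peak lists for 6 ATAC-seq libraries, 1 list per genotype, pooled over libraries, with 8615 cKO-specific and 3490 cWT-specific peaks. For each peak the authors deposited a score and a signal. The deposited p-value comes unadjusted and adjusted. These readings rest on layout and values, and the deposited score is a fixed multiple of -log2 of the p-value, rounded down, in all 12105 peaks. The submitters' processing notes name GRCm38/mm10, HOMER 4.11, MACS2 2.2.7.1 and Bowtie2 2.4.4. What each tool did, the pooling of libraries, any Tn5 shift and how specific peaks were chosen were not given in the sources used here. Depth per library is unknown, and its part in the lengths of the lists was not tested.

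Here, gene spans and promoters came from RefSeq tables of GRCm38.p6 (21887 coding genes). A peak went to whichever coding gene had an end closest to the peak's midpoint, up to 100 kb (11013 peaks). Counts, medians and exact Clopper-Pearson 95% intervals were computed with Python 3.11.15, pandas 2.3.3, numpy 2.4.6 and scipy 1.17.1, and figures drawn with matplotlib 3.10.9. No test was run, since the lists hold no values per library. Intervals cover counting error only. Named members had 3 or more peaks, a peak within 1000 bp of an own end, a p-value up to 0.5, peaks of both lists, or peaks within 500 bp of each other; other members are given by count, apart from the chromosome 7 cluster, Trim33's distance and the motif genes, which were singled out after their values were seen. Members and lists were chosen with earlier results of these data known. Motifs were chosen after the files were seen. Alternatives covered the window, gene set, assignment, p-value, score, merging and members.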

Additional observations from a re-analysis of the deposited data

How the results depend on the processing

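The cKO share of member peaks stayed between 65.0% and 69.7% under 7 of the 8 alternatives to the 68.6% reported. It was 90.0% among the 10 peaks with a deposited p-value up to 0.5, where all assigned peaks gave 83.3%. That filter left 9 cKO-specific and 1 cWT-specific member peaks at 9 and 1 genes, 3 and 1 of them at a gene end. These are 7.26% and 0.806% of members, beside 4.18% and 0.886% of all coding genes, so the cKO share of genes lies further from the background than without the filter. Assignment within 10 kb left 23 and 10 peaks at 19 and 10 members (15.3% and 8.06% of members, beside 14.2% and 6.12% of all coding genes). With the ends of all annotated genes 26 and 14 peaks remained for members, with the midpoint required inside the gene 30 and 14, and at or above the median score of a list 28 cKO-specific ones. Fewer peaks follow from each of these limits by construction. With all annotated genes 16.9% and 11.3% of members had a cKO-specific and a cWT-specific peak, beside 12.3% and 5.93% over all genes of that setting. With the midpoint inside the gene it was 16.9% and 11.3%, beside 15.2% and 7.9%. At or above the median score it was 17.7% and 12.1%, beside 14.1% and 6.57%. These differences were not tested. Widening the gene-end window to 3000 bp took the cKO-specific peaks there from 5 to 12 and left 5 cWT-specific ones. The share of all assigned peaks at a gene end was not computed for this window or for the p-value filter. These gene-end counts therefore have no background beside them. Merging peaks within 500 bp, using the nearest peak edge, leaving out members without shown activity, and counting gaps up to 500 bp as overlap moved no count by over 1.5 times. No paired analysis was possible because the lists hold no value for any single library, and for the same reason no replicate could be left out. Depth is unknown, so a member without a listed peak is not shown to be closed.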
